A study of Mus musculus with 8 samples.

Results

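The genes of inhibitory transmission by GABA (gamma-aminobutyric acid) and glycine were examined in whole brain of mice lacking SIRT1 there. The members were all genes whose symbol is that of a GABA-A, GABA-B or glycine receptor subunit, a GABA-synthesising or GABA-degrading enzyme, a vesicular or plasma membrane transporter of either amino acid, the scaffold gephyrin, or one of the chloride cotransporters Slc12a2 and Slc12a5. This choice by name gave 28 genes measured by 42 probe sets, of 12393 genes with 1 symbol and 22626 probe sets tested. The samples were 4 SIRT1 brain-specific knockout mice (BSKO) and 4 wild-type littermates (WT), all C57/B6 males aged 3 months, each on its own Affymetrix array. The part of Sirt1 that is deleted, and the promoter or Cre line behind the deletion, are not given in the sources used here. A further 11 genes named by the choice were not analysed here.

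GABA is made from glutamate by the decarboxylases Gad1 and Gad2, loaded into synaptic vesicles by Slc32a1, which also loads glycine, and removed from the cleft by transporters of the Slc6 family. GABA-A receptors are pentameric chloride channels, glycine receptors are related channels found above all in the brainstem and spinal cord, and GABA-B receptors act through G proteins. Gephyrin anchors glycine receptors, through their beta subunit, and many GABA-A receptors at inhibitory synapses, while Slc12a2 brings chloride into the cell and Slc12a5 extrudes it from neurons. The subunit makeup of GABA-A receptors differs between regions: the delta subunit lies outside synapses in cells such as dentate granule cells and striatal and thalamic neurons, and the alpha 6 subunit marks cerebellar granule cells.

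The deposited values are log2 values in which every member probe set has a median of 0 over the 8 arrays, so a value states how far an array lies from that median and carries no level of expression. Levels of different genes can therefore not be compared, and whether a gene or a tissue marker is present cannot be read from these values. Where the genotypes do not overlap, this centring alone places the higher genotype above 0 and the lower one below. The targeted gene, Sirt1, has 1 probe set, and whether it lies in the deleted part is not given in the sources used here. It read 0.00, 0.00, 0.08 and 0.29 on WT 1 to 4 and 0.08, -1.46, -0.20 and -0.06 on BSKO 1 to 4. The genotypes overlapped, since BSKO 1 lay above WT 1 and WT 2, and the difference was -0.50 (SE 0.31, limma adjusted p = 0.504), or -0.15 (SE 0.10, limma adjusted p = 0.401) without BSKO 2. The genotypes are therefore those of the labels, which Sirt1 did not settle here. Array BSKO 2 stood apart from the rest. Its 5' beta-actin control lay -2.44 from the 3' control, against -0.10 to 0.49 on the other 7 arrays, and over the member probe sets its SD was 0.927, against 0.143 to 0.351. Among the 28 genes it was the lowest of all 8 arrays for 11 and the highest for 7, which is 64.3% of them, and it was the lowest or highest array for 9296 of the 12393 genes. The differences of the member genes are therefore given with 8 arrays and with the 7 arrays that remain without BSKO 2. In tissue RNA, fewer cells of a type and less RNA per cell cannot be told apart.

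**Figure D1:**
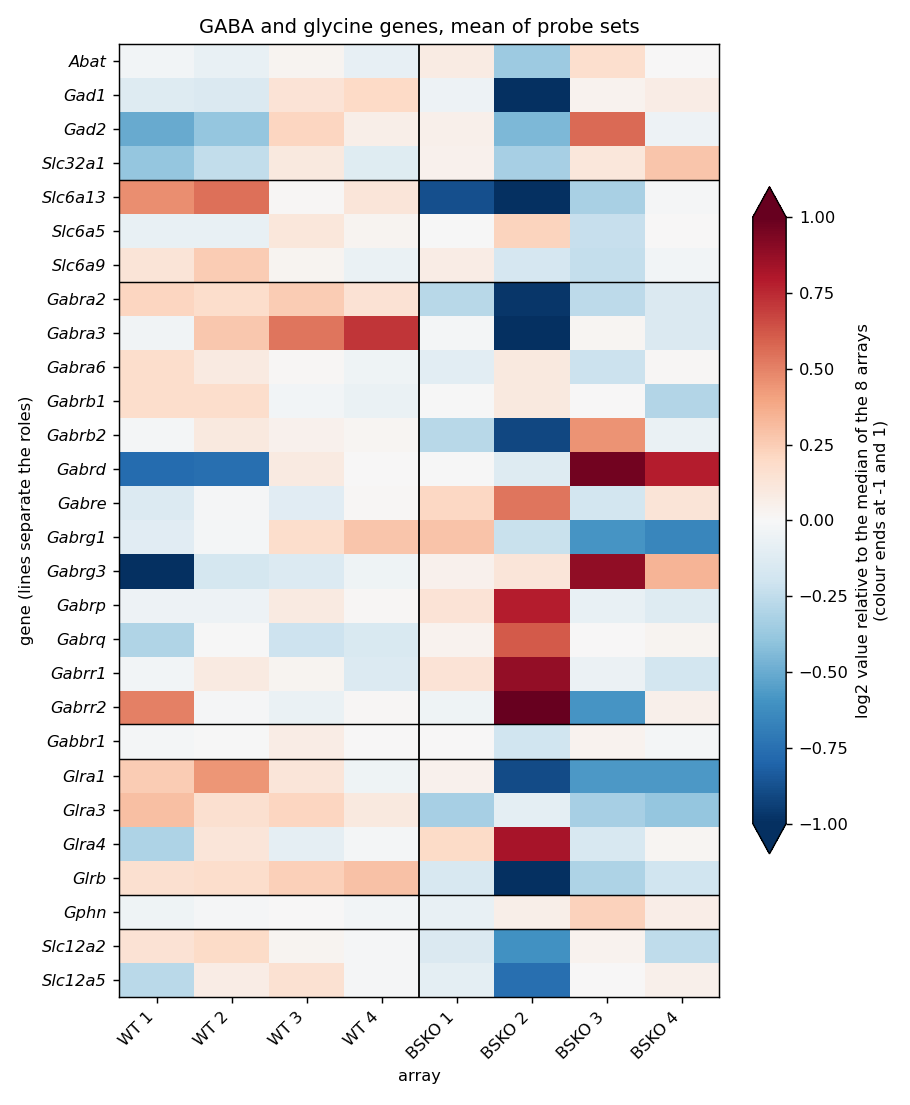
Each row is 1 of the 28 genes, ordered by role, and each column is 1 array. Colour gives the mean log2 value of the gene's probe sets relative to the median of the 8 arrays, and ends at -1 and 1. The column of BSKO 2 holds the strongest colours in most rows, such as Gad1 at -1.58 and Gabrr2 at 1.63, while Gabra2, Glra3 and Glrb are above 0 on all 4 WT arrays and below 0 on all 4 BSKO arrays.

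With 8 arrays no member passed the test over all genes. Of the 28 genes, 12 were on the higher and 16 on the lower side in BSKO, with a median log2 difference of -0.08 (range -1.12 to 0.76), beside a median of 0.03 and 45.2% on the lower side over all genes. None had an adjusted p under 0.05 by limma with Benjamini-Hochberg adjustment (lowest adjusted p = 0.130, for Glra3), where 0.0726% of all genes did, and 9 of the 28 had an unadjusted p under 0.05, where 12.2% of all genes did. The same held over the 42 probe sets, of which 0 passed the adjusted test (0.0309% of all probe sets did) and 11 had an unadjusted p under 0.05, beside 10.8% of all probe sets. The genotypes did not overlap for 6 of the 28 genes, 2 higher and 4 lower in BSKO, beside 13.2% of all genes (6.4% higher and 6.85% lower). They did not overlap for 7 of the 42 probe sets, beside 12.3% of all.

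Without BSKO 2, the GABA-A receptor subunit gene Gabra2 and the glycine receptor subunit genes Glra3 and Glrb fell in BSKO brain, by between 1.34-fold and 1.46-fold. These 3 of 28 genes, all lower, had an adjusted p under 0.05 in this fit, beside 2.15% of all genes and 1.39% on the lower side. On the level of probe sets the same 3 genes, with 1 probe set each, were called among 42, beside 1.63% of all probe sets and 1.14% on the lower side. At an unadjusted p under 0.05 there were 11 of 28 genes, where 21.2% of all genes were, and 13 of 42 probe sets, where 19.8% were. The median difference over the 28 genes was -0.02 in this fit (range -0.69 to 0.94), beside 0.01 over all genes, with 17 of 28 on the lower side, beside 46.4% of all genes. The median SE of a member fell from 0.191 with 8 arrays to 0.102. The genotypes did not overlap for 6 of the 28 genes in this fit too, 2 higher and 4 lower, beside 20.5% of all genes (10.2% in each direction), so that share was close to the one over all genes. They did not overlap for 9 of the 42 probe sets, beside 19.5% of all. With 8 arrays, the same 3 genes were called after quantile normalization, and with array weights they were called together with Gabrd, Glra1 and Slc12a2. Over all 12393 genes, 413 were called after quantile normalization. With array weights, 637 of all genes were called higher and 597 lower in BSKO. The weight of BSKO 2 was only 0.0493 in that fit, which is therefore close to leaving this array out.

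Gabra2 encodes the alpha 2 subunit, common in forebrain GABA-A receptors on axon initial segments and in the striatum, hippocampus and amygdala. Its probe set 1421738_at read 0.22, 0.17, 0.25 and 0.15 on WT 1 to 4 and -0.28, -0.97, -0.26 and -0.15 on BSKO 1 to 4. The WT arrays lay within 0.10 of each other, and every BSKO array was below all of them, with BSKO 2 far below the other 3. The mean went from 0.20 ± 0.05 (SD, n = 4) in WT to -0.23 ± 0.07 (SD, n = 3) in BSKO without BSKO 2, a difference of -0.43 (SE 0.06, limma adjusted p = 0.0250). With 8 arrays the difference was -0.61 (SE 0.17, limma adjusted p = 0.252).

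Glra3 encodes the alpha 3 subunit of the glycine receptor, a ligand-binding subunit. It read 0.30, 0.16, 0.22 and 0.10 on WT 1 to 4 and -0.33, -0.10, -0.33 and -0.38 on BSKO 1 to 4. Here BSKO 2 was the BSKO array nearest to WT, and no BSKO array reached the lowest WT value. Without BSKO 2 the mean went from 0.19 ± 0.09 (SD, n = 4) to -0.35 ± 0.03 (SD, n = 3), a difference of -0.54 (SE 0.07, limma adjusted p = 0.0164). With 8 arrays it was -0.48 (SE 0.10, limma adjusted p = 0.130).

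Glrb encodes the beta subunit, which pairs with the alpha subunits of the glycine receptor and binds gephyrin. It read 0.16, 0.18, 0.24 and 0.29 on WT 1 to 4 and -0.16, -1.10, -0.31 and -0.20 on BSKO 1 to 4. All 4 WT arrays lay above all BSKO arrays, again with BSKO 2 far below the other 3. The difference was -0.44 (SE 0.07) without BSKO 2, from 0.22 ± 0.06 (SD, n = 4) to -0.22 ± 0.08 (SD, n = 3), with a limma adjusted p of 0.0265. With 8 arrays it was -0.66 (SE 0.20, limma adjusted p = 0.276).

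**Figure D2:**
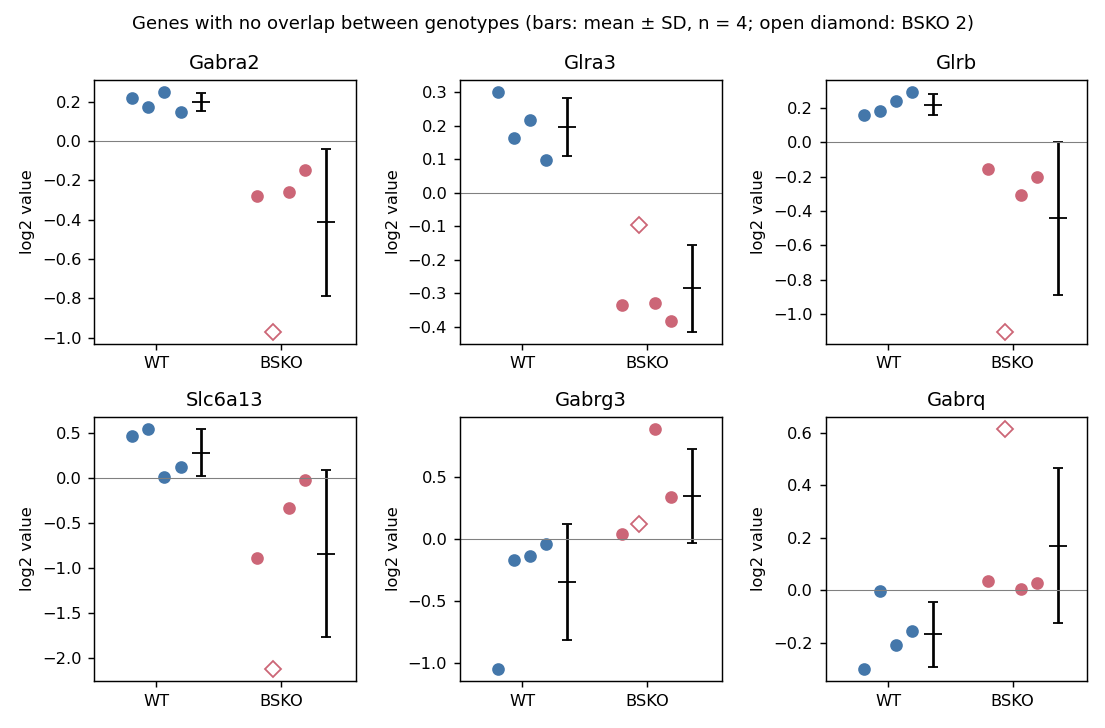
The 6 genes whose genotypes do not overlap on the mean of their probe sets, with the log2 value of each array on the y axis (each panel has its own scale) and the genotype on the x axis. Bars give the mean ± SD of 4 arrays and the open diamond is BSKO 2. Gabra2, Glra3 and Glrb keep a gap between the genotypes on every array, while WT 3 (0.01) and BSKO 4 (-0.01) nearly meet for Slc6a13 and WT 2 and BSKO 3 nearly meet at 0.00 for Gabrq.

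The 3 calls needed nearly all of the 7 arrays. Leaving out WT 1, WT 2, WT 3 or BSKO 4 as well ended all 3 calls, and leaving out WT 4 or BSKO 3 left Glra3 alone. Calls over all 12393 genes also fell in these fits. From 266 they went to 22 without WT 1, 13 without WT 2, 45 without WT 3 and 46 without BSKO 4. They were 31 without WT 4 and 59 without BSKO 3. Without BSKO 1 all 3 of these members were called, together with Gabrd, Gabrg1 and Glra1, where 814 of all genes were called. Over all alternatives of the fit without BSKO 2 the differences lay between -0.47 and -0.37 for Gabra2, between -0.58 and -0.51 for Glra3 and between -0.47 and -0.40 for Glrb, with adjusted p values of 0.0119 to 0.133, 0.00601 to 0.0939 and 0.00928 to 0.126 by limma.

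Several marker lists moved with the genotype as well. The median of 9 meningeal and fibroblast markers was 0.16 to 0.78 in WT and -0.48 to -0.23 in BSKO, with 9 of 9 genes lower. That of 6 dentate gyrus granule cell markers was 0.04 to 0.75 in WT and -0.40 to -0.16 in BSKO, with 6 of 6 lower. The median of 8 astrocyte markers was 0.036 to 0.16 in WT and -0.32 to 0.033 in BSKO, so the genotypes nearly met. Of these, 7 of 8 were lower (6 of 8 without BSKO 2). Striatal markers went the other way, with 8 of 8 higher and a median difference of 1.57 with 8 arrays. Their median was -1.79 to 0.036 in WT and 0.00 to 1.12 in BSKO, so the genotypes overlapped. Without BSKO 2 the lowest BSKO array, BSKO 1, read 0.049, so the genotypes nearly met. The median of 5 general neuron markers overlapped, at -0.08 to 0.11 in WT and -0.22 to 0.30 in BSKO without BSKO 2, which read -0.91. Those of the interneuron, cerebellar, thalamic, hindbrain and spinal, choroid plexus, oligodendrocyte and microglial lists overlapped between the genotypes too. The meningeal and dentate gyrus medians also differed within WT, where arrays 1 and 2 lay 0.59 and 0.66 above arrays 3 and 4. For the striatal median this difference was -1.73. The same difference was 0.00 for Gabra2, 0.07 for Glra3 and -0.10 for Glrb. Against the mean of WT 1 and WT 2, BSKO 1 was lower by -0.47 for Gabra2, -0.57 for Glra3 and -0.32 for Glrb, and against WT 3 and WT 4 the mean of BSKO 3 and BSKO 4 was lower by -0.40, -0.51 and -0.52. The part of other cell types in these 3 differences was not tested.

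The sequences upstream of these 3 genes are shown because their transcripts were the members that fell together. They are the 250 bases before the annotated start in RefSeq, build GRCm38.p6, 5' to 3' on the strand of the gene. They come from chr5:71095850-71096099 on the minus strand for Gabra2, chr8:55940168-55940417 on the plus strand for Glra3 and chr3:80913661-80913910 on the minus strand for Glrb. Capitals mark the motifs found, on either strand.
Gabra2: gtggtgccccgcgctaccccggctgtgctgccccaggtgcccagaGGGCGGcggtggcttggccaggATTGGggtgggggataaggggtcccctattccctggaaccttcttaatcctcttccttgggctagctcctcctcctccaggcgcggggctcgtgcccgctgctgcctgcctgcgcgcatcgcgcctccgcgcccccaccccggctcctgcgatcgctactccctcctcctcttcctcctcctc
Glra3: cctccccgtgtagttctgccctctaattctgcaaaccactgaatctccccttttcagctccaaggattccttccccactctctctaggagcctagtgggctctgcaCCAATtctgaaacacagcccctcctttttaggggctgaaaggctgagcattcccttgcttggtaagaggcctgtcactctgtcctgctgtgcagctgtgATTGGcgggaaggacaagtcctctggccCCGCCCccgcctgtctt
Glrb: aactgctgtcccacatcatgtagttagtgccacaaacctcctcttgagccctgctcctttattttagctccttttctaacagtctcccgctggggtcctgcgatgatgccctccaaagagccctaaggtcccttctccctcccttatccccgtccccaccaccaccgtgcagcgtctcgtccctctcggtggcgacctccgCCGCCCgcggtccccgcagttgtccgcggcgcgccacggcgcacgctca
A GC box (GGGCGG) was found in all 3 sequences, and a CCAAT box (CCAAT) in those of Gabra2 and Glra3. The GC box was present in 32.7% of 32851 upstream sequences of that length and the CCAAT box in 33.8%. A TATA box (TATAAA, in 12.4% of all), a short CRE (TGACG, 17.8%), a full CRE (TGACGTCA, 1.55%, which contains the short one), an E-box (CACGTG, 6.02%) and a REST site core (0.0335%) were not found in these 3 windows. The G and C content was 70.0% for Gabra2, 56.0% for Glra3 and 62.4% for Glrb, beside a median of 52.4% over all. Of the 28 members, 24 had an entry. The GC box lay in the upstream sequence of 14 of those genes, and the CCAAT box in that of 12. A match is a description of the letters, and binding was not measured.

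The other glycine receptor subunit genes were not called. Glra1, which encodes the alpha 1 subunit of adult spinal cord and brainstem receptors, read 0.25, 0.44, 0.12 and -0.04 on WT 1 to 4 and 0.04, -0.90, -0.57 and -0.58 on BSKO 1 to 4. BSKO 1 lay among the WT arrays and the other 3 BSKO arrays below all of them. Its difference was -0.70 (SE 0.20, limma adjusted p = 0.252) with 8 arrays and -0.57 (SE 0.18, limma adjusted p = 0.133) without BSKO 2. The median of 6 hindbrain and spinal cord markers, of 8 listed, was 0.47 and 0.28 on WT 1 and 2 and lay between -0.25 and 0.18 on the other 6 arrays, and its part in Glra1 was not tested. Glra4 read between -0.31 and 0.12 in WT and between -0.16 and 0.82 in BSKO, and the groups overlapped. Its difference was 0.29 with 8 arrays and 0.09 without BSKO 2. In both fits 3 of 4 glycine receptor subunit genes were on the lower side, beside 45.2% of all genes with 8 arrays and 46.4% without BSKO 2. Of those, 2 were called without BSKO 2, where 1.39% of all genes were called on the lower side.

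Among the 13 genes of GABA-A receptor subunits, Gabra2 was the only one called without BSKO 2, and 4 were on the higher and 9 on the lower side (median difference -0.02). With 8 arrays the balance was the opposite, with 7 on the higher and 6 on the lower side (median difference 0.15) and none called. The largest difference was that of Gabrd, which encodes the delta subunit. It read -0.77, -0.76, 0.09 and 0.01 on WT 1 to 4 and -0.01, -0.13, 0.96 and 0.78 on BSKO 1 to 4. The groups overlapped, since WT 3 and WT 4 lay above BSKO 1 and BSKO 2, and within each genotype arrays 3 and 4 were the high ones. The difference of 0.76 (SE 0.31, limma adjusted p = 0.394) with 8 arrays, or 0.94 (SE 0.30, limma adjusted p = 0.143) without BSKO 2, was within this spread.

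Compared within those pairs of replicate numbers, Gabrd was 0.76 higher on BSKO 1 than on WT 1 and 2, and 0.83 higher on BSKO 3 and 4 than on WT 3 and 4. When the fit held a term for the division of the replicates into 1 and 2 against 3 and 4, which was chosen because it was known from these data, Gabrd rose in BSKO, by 0.76 with 8 arrays (SE 0.09, limma adjusted p = 0.0198) and by 0.80 without BSKO 2 (SE 0.07, limma adjusted p = 0.00434). In the second of these fits Glra1 was also called (-0.49, limma adjusted p = 0.0344). Over all 12393 genes, 78 were called in this fit with 8 arrays and 565 without BSKO 2. The labels name no batch that sets these replicates apart. The median of 8 striatal markers, of 12 listed, with all 8 higher in BSKO, was -1.79, -1.70, 0.04 and -0.06 on WT 1 to 4 and 0.05, 0.00, 1.12 and 0.91 on BSKO 1 to 4. It was 1.79 higher on BSKO 1 than on WT 1 and 2, and 1.03 higher on BSKO 3 and 4 than on WT 3 and 4. Gabrd and the striatal markers thus had the same low and high arrays. The median of the 6 dentate granule cell markers, all lower in BSKO, was instead highest on WT 1 (0.69) and WT 2 (0.75). That of 5 thalamic markers, of 6 listed, was -0.11 to 0.22 in WT and -0.99 to 0.32 in BSKO. Of the thalamic markers 4 of 5 were lower with 8 arrays and 5 of 5 without BSKO 2. The part of the striatal share of the RNA, or of these other cells, in the Gabrd difference was not tested.

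**Figure D3:**
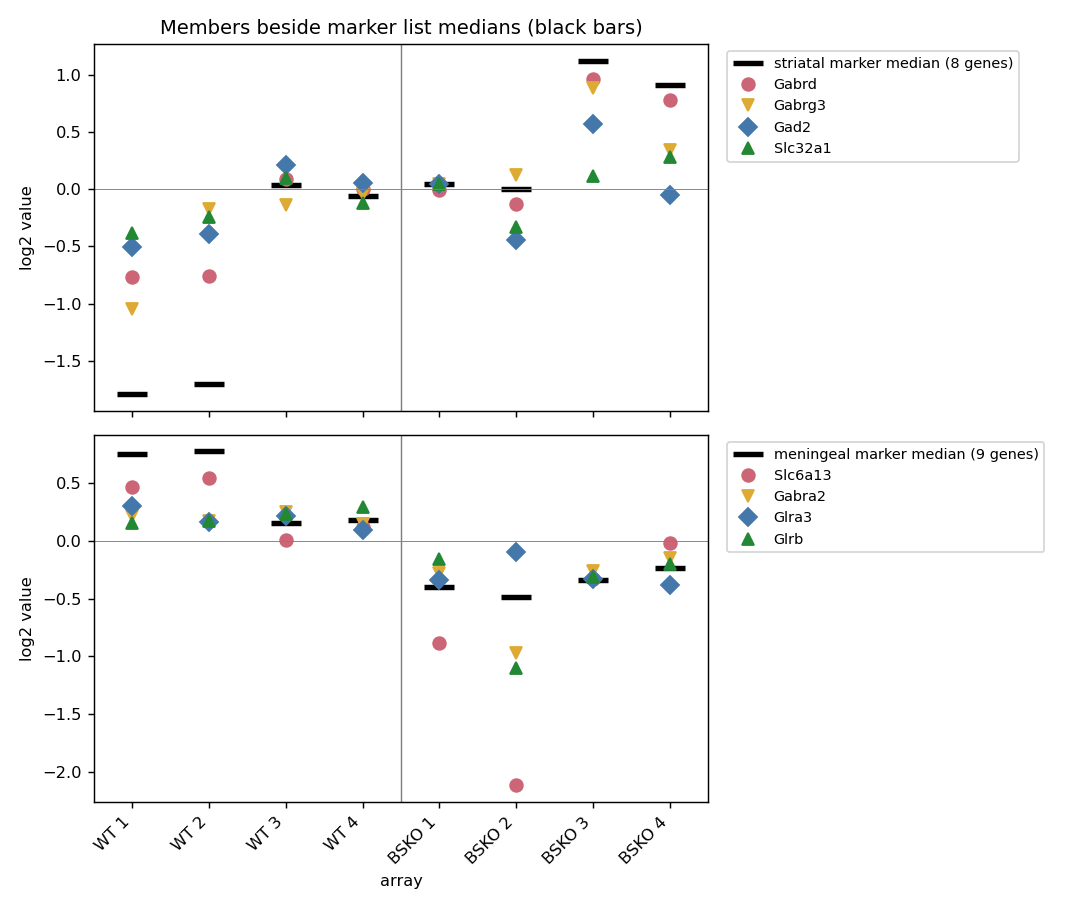
Log2 values on each array (x axis) of Gabrd, Gabrg3, Gad2 and Slc32a1 beside the median of 8 striatal markers (upper plot), and of Slc6a13, Gabra2, Glra3 and Glrb beside the median of 9 meningeal markers (lower plot). Black bars are list medians and the grey vertical line parts WT from BSKO. In the upper plot WT 1 and WT 2 are low and BSKO 3 is high for the list (-1.79, -1.70 and 1.12) and for Gabrd (-0.77, -0.76 and 0.96). In the lower plot Gabra2, Glra3 and Glrb differ little among the WT arrays.

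Gabrg3, the gene of the gamma 3 subunit, separated the genotypes and missed the threshold. It read -1.05, -0.17, -0.13 and -0.04 on WT 1 to 4 and 0.04, 0.12, 0.88 and 0.34 on BSKO 1 to 4. Both groups were wide, with WT 1 alone at the low end and BSKO 3 at the high end. Its difference was 0.70 (SE 0.26, limma adjusted p = 0.367) with 8 arrays and 0.77 (SE 0.28, limma adjusted p = 0.177) without BSKO 2. Gabrq, the gene of the theta subunit, separated the genotypes by a narrow gap, with values of -0.30 to 0.00 in WT and 0.00, 0.03, 0.03 and, on BSKO 2, 0.61 in BSKO. It differed by 0.34 (limma adjusted p = 0.420) and, without BSKO 2, by 0.19 (limma adjusted p = 0.219).

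Gabra3, the gene of the alpha 3 subunit, read -0.04, 0.27, 0.54 and 0.71 on WT 1 to 4 and -0.02, -1.26, 0.02 and -0.15 on BSKO 1 to 4. WT 1 lay among the BSKO arrays and the other 3 WT arrays above them. The difference was -0.72 (SE 0.30, limma adjusted p = 0.397), or -0.42 (SE 0.17, limma adjusted p = 0.203) without BSKO 2. Gabrg1, the gene of the gamma 1 subunit, was low on BSKO 3 (-0.59) and BSKO 4 (-0.65) and highest on BSKO 1 (0.29), with WT between -0.11 and 0.27. Its difference was -0.37 with 8 arrays (SE 0.21, limma adjusted p = 0.472). That of -0.40 without BSKO 2 (SE 0.23, limma adjusted p = 0.347) was within the spread of the BSKO arrays. When BSKO 1 was left out as well, Gabrg1 was called (-0.70, limma adjusted p = 0.0259), where 814 of all genes were called. On BSKO 2 probe set 1427227_at of Gabrg1 read -1.14 and 1460408_at 0.69. Their differences with 8 arrays were -0.63 and -0.11.

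The beta 2 subunit gene Gabrb2, part of the most common GABA-A receptor of the brain, read -0.02, 0.10, 0.04 and 0.02 on WT 1 to 4 and -0.28, -0.91, 0.45 and -0.07 on BSKO 1 to 4. The WT arrays lay within 0.11 of each other, and the BSKO arrays on both sides of them. The difference was 0.00 without BSKO 2 (95% interval -0.36 to 0.36) and -0.24 with 8 arrays (SE 0.25, limma adjusted p = 0.657). The other genes of this group were Gabra6, Gabrb1, Gabre, Gabrp, Gabrr1 and Gabrr2, and their differences ran from -0.31 (Gabrr2) to 0.12 (Gabre) without BSKO 2 and from -0.11 (Gabrb1) to 0.24 (Gabre) with 8 arrays. For Gabrp, Gabrr1 and Gabrr2, the genes of the pi subunit and of rho subunits known from the retina, BSKO 2 was the highest array (0.79, 0.88 and 1.63), and the direction turned from higher to lower when it was left out.

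Many GABA-A receptor genes lie in clusters. On chromosome 5, in the order of the RefSeq annotation of GRCm38.p6, Gabrg1 is next to Gabra2, and Gabrb1 follows beyond Gabra4. Their differences without BSKO 2 were -0.40, -0.43 and -0.16, all on the lower side, and only Gabra2 of these was called. With 8 arrays they were -0.37 for Gabrg1, -0.61 for Gabra2 and -0.11 for Gabrb1. Gabrr2 and Gabrr1, neighbours on chromosome 4, were at -0.31 and -0.02 without BSKO 2 and at 0.15 and 0.20 with 8 arrays. On the X chromosome Gabra3 (-0.42 without BSKO 2 and -0.72 with 8 arrays) is next to Gabrq (0.19 and 0.34), which lay on the other side. On chromosome 11 Gabra6 (-0.16 and -0.11) is next to Gabrb2 (0.00 and -0.24). Differences between neighbours were not tested.

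**Figure D4:**
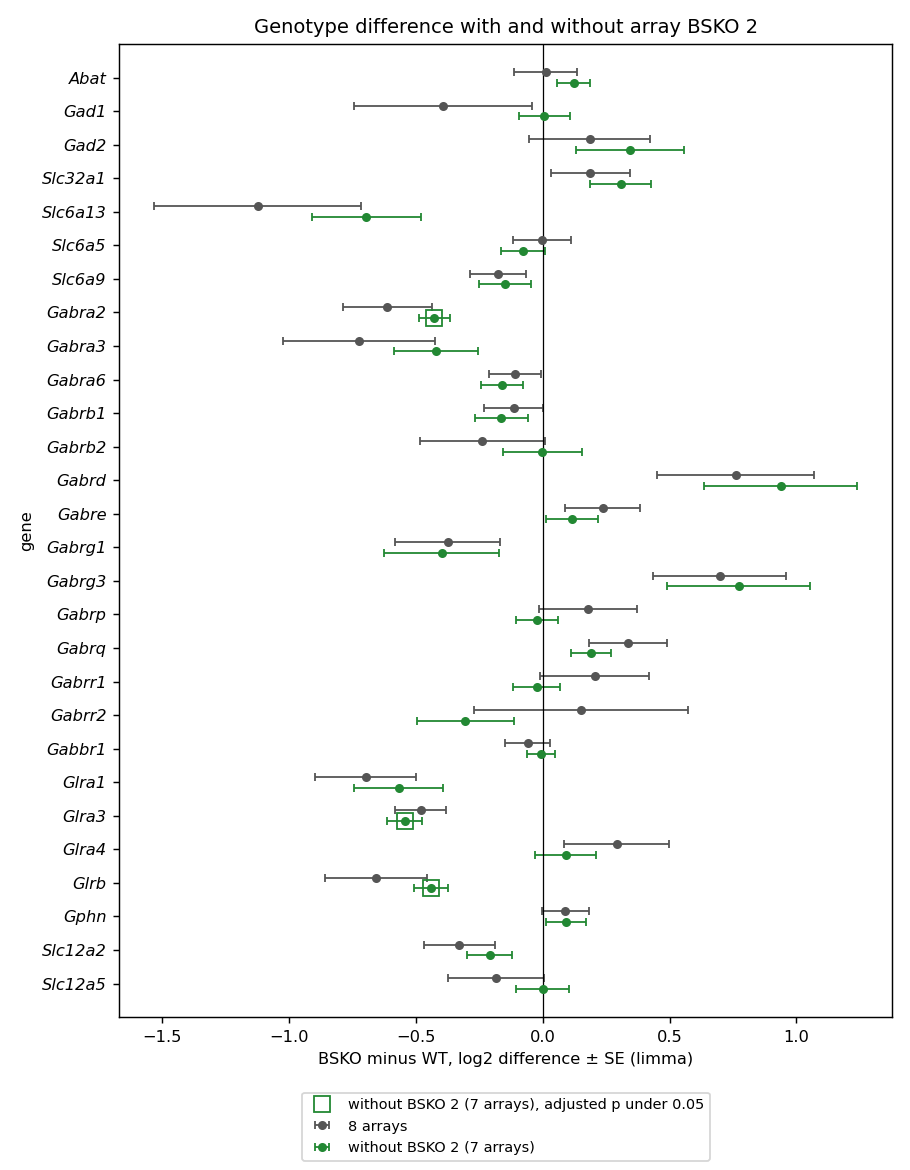
The log2 difference, BSKO minus WT (x axis), of each of the 28 genes (y axis) with its SE from limma, with all 8 arrays in grey and without BSKO 2 in green. Open squares mark an adjusted p under 0.05. Only Gabra2 (-0.43), Glra3 (-0.54) and Glrb (-0.44) without BSKO 2 carry a square, and the bars are shorter without BSKO 2 for most genes.

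The genes of GABA synthesis, vesicle loading and breakdown gave no call with 8 arrays or without BSKO 2. Gad1, the decarboxylase that makes most of the GABA of the brain, read -0.13, -0.15, 0.13 and 0.20 on WT 1 to 4 and -0.05, -1.58, 0.03 and 0.08 on BSKO 1 to 4. Apart from BSKO 2, the BSKO arrays lay inside the WT range. The difference was -0.39 (SE 0.35, limma adjusted p = 0.611) with 8 arrays and 0.01 without BSKO 2 (95% interval -0.23 to 0.24), so the negative value rested on BSKO 2. Its 2 probe sets disagreed on that array: 1416562_at read -2.96 and 1416561_at -0.20, while on the other 7 arrays they lay within 0.30 of each other.

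Gad2, the decarboxylase tied to synaptic vesicles, read -0.50, -0.39, 0.21 and 0.06 on WT 1 to 4 and 0.05, -0.45, 0.57 and -0.05 on BSKO 1 to 4. The groups overlapped, and WT 1 and WT 2 were low, as for Gabrd. The difference was 0.35 without BSKO 2 (95% interval -0.15 to 0.84, limma adjusted p = 0.387) and 0.19 with 8 arrays (SE 0.24, limma adjusted p = 0.713). Slc32a1, the vesicular transporter, read -0.39, -0.25, 0.10 and -0.12 on WT 1 to 4 and 0.04, -0.33, 0.11 and 0.28 on BSKO 1 to 4. WT 1 and WT 2 were again the low WT arrays, and WT 3 lay above BSKO 1. It differed by 0.31 without BSKO 2 (95% interval 0.03 to 0.58, limma adjusted p = 0.197) and by 0.19 with 8 arrays (limma adjusted p = 0.594). With array weights its probe set 1422756_at was called, at 0.57 with 8 arrays (limma adjusted p = 0.0248) and 0.59 without BSKO 2 (limma adjusted p = 0.0281). Its other probe set, 1456457_at, was not. Of all 22626 probe sets, 2617 were called with array weights with 8 arrays and 3005 without BSKO 2. Abat, the transaminase that breaks GABA down, differed by 0.01 with 8 arrays and by 0.12 without BSKO 2 (95% interval -0.03 to 0.27). The median of 11 markers of GABAergic interneurons was -0.02 to 0.07 in WT and -0.17 to 0.08 in BSKO without BSKO 2 (-0.24 on BSKO 2), and these ranges overlapped. In both fits 8 of the 11 were lower, beside 45.2% of all genes with 8 arrays and 46.4% without BSKO 2. Only Htr3a was called, lower without BSKO 2 (-0.84, limma adjusted p = 0.0125), where 1.39% of all genes were. The genotypes did not overlap for Htr3a in that fit. Tac1 was higher by 0.62 in both fits, with no overlap between the genotypes. Over all genes 13.2% did not overlap with 8 arrays and 20.5% without BSKO 2. Tac1 is also 1 of the 8 striatal markers, and like their median it was low on WT 1 (-0.88) and WT 2 (-0.82).

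Among the transporters, Slc6a13 had the largest difference. It encodes a GABA and taurine transporter that in the brain is known from the meninges. It read 0.47, 0.55, 0.01 and 0.12 on WT 1 to 4 and -0.88, -2.12, -0.33 and -0.01 on BSKO 1 to 4. All WT arrays lay above all BSKO arrays, by a gap between WT 3 and BSKO 4 that was small beside the spread within either group. The difference was -1.12 (SE 0.41, limma adjusted p = 0.356) with 8 arrays and -0.69 (SE 0.22, limma adjusted p = 0.133) without BSKO 2. WT 1 and WT 2 were the high arrays both for Slc6a13 and for the median of the 9 meningeal markers (0.75 and 0.78, against 0.16 and 0.19 on WT 3 and WT 4), and BSKO arrays were low in both, and the part of meningeal tissue in this difference was not tested. The glycine transporter genes Slc6a5, of glycinergic neurons, and Slc6a9, mainly of glia, differed by -0.08 (95% interval -0.28 to 0.12) and -0.15 (95% interval -0.39 to 0.09) without BSKO 2, with overlapping groups. With 8 arrays they differed by 0.00 (SE 0.11) and -0.17 (SE 0.11).

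The remaining roles were represented by a few genes. Gabbr1, the ligand-binding subunit of the GABA-B receptor, read -0.02, -0.01, 0.07 and 0.01 on WT 1 to 4 and 0.00, -0.20, 0.04 and -0.02 on BSKO 1 to 4. Its difference was -0.06 (SE 0.09) with 8 arrays and -0.01 without BSKO 2 (95% interval -0.14 to 0.12). On BSKO 2 its probe sets ran from -1.10 (1422051_a_at) to 0.37 (1425595_at). Gphn, the gene of gephyrin, read -0.04, -0.01, 0.00 and -0.02 in WT and -0.07, 0.06, 0.23 and 0.07 in BSKO, with BSKO 3 the highest. It differed by 0.09 with 8 arrays (SE 0.09) and by 0.09 without BSKO 2 (95% interval -0.09 to 0.28), while Glrb, whose protein binds it, was lower. The Gphn value on BSKO 2 is the mean of opposite readings, 0.95 for 1426462_at and -0.82 for 1426463_at. With 8 arrays these probe sets differed between genotypes by 0.32 and -0.14, and without BSKO 2 by 0.10 and 0.09.

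Slc12a5, the neuronal chloride extruder, read -0.27, 0.07, 0.15 and -0.01 on WT 1 to 4 and -0.10, -0.76, 0.00 and 0.05 on BSKO 1 to 4. The difference was -0.18 (SE 0.19) with 8 arrays and 0.00 without BSKO 2 (95% interval -0.24 to 0.24). On BSKO 2 probe set 1425337_at of this gene read -1.58 and 1451674_at 0.07. Their differences with 8 arrays were -0.43 and 0.06. Slc12a2, the chloride importer, differed by -0.33 (SE 0.14, limma adjusted p = 0.407) with 8 arrays and by -0.21 (SE 0.09, limma adjusted p = 0.229) without BSKO 2 as the mean of 3 probe sets, and these disagreed. Without BSKO 2, probe sets 1448780_at and 1417622_at differed by -0.33 and -0.28, with no overlap between the genotypes, while 1417623_at differed by -0.02, and none of the 3 was called.

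For 11 members with several probe sets, agreement between the probe sets of a gene could be measured on each array. The median distance between the highest and the lowest probe set of a gene was 0.07 to 0.25 on the 7 other arrays and 1.64 on BSKO 2. For 9 of the 11 genes the widest distance was on BSKO 2. Gabra2, Glra3 and Glrb have 1 probe set each, so their values have no such check.

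**Figure D5:**
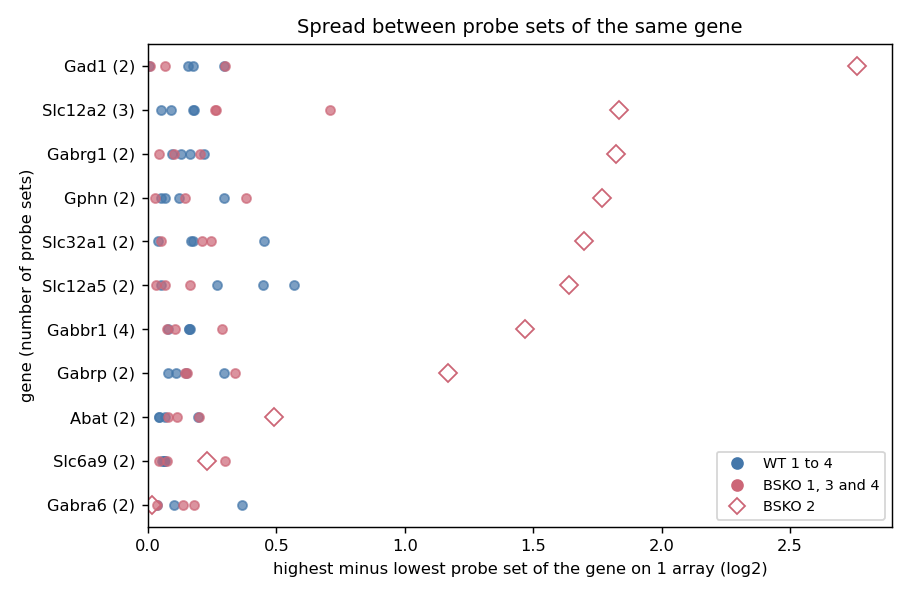
For the 11 members with several probe sets (y axis, number of probe sets in brackets), the distance on 1 array between the highest and the lowest probe set in log2 units (x axis). Each gene has 1 point for each array. BSKO 2, the open diamond, is farthest right for 9 genes, up to 2.76 for Gad1, and the largest value on any other array is 0.71, for Slc12a2.

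Other genes of the pathway, such as receptor trafficking factors, glutamine transporters and transcription factors of GABAergic neurons, were taken from a list of 47, of which 30 were measured. With 8 arrays 11 were on the higher and 19 on the lower side (median -0.07) and none was called, with 6 at an unadjusted p under 0.05, where 12.2% of all genes were. Without BSKO 2, 16 were on the higher and 14 on the lower side (median 0.01), and Slc38a3 alone was called, where 2.15% of all genes were. In either fit the genotypes did not overlap for 6 of the 30, beside 13.2% of all genes with 8 arrays and 20.5% without BSKO 2. Slc38a3, which releases glutamine from astrocytes as a precursor of transmitter glutamate and GABA, read -0.19, -0.29, -0.16 and -0.12 on WT 1 to 4 and 0.12, 0.76, 0.47 and 0.38 on BSKO 1 to 4. All BSKO arrays were above all WT arrays, and the rise was 0.51 (SE 0.09, limma adjusted p = 0.0419) without BSKO 2, or 0.62 (SE 0.14, limma adjusted p = 0.153) with 8 arrays. The genotypes also did not overlap for Dlx6 (1.01 without BSKO 2), a homeobox gene of forebrain GABAergic neurons that was low on WT 1 (-1.19) and WT 2 (-1.08) like the striatal markers, for Clptm1 (0.29) on the higher side, and for Ubqln1 (-0.12), Dld (-0.18) and Ppargc1a (-0.25) on the lower side, none of them called.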

How the data were processed

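Total RNA from whole brain was hybridised to 8 Affymetrix Mouse430A_2 arrays, 4 per genotype, per the labels. The submitters' processing notes name RMA, with no version. The log2 values deposited by the authors for 22689 of 22690 probe sets, all 42 member probe sets among them, have a median within 1e-05 of 0 over the 8 arrays, a centring that no label records. Scanner files were not used here.

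Control probe sets (64) were left out, and no filter on dim signals was possible. Symbols came from the platform annotation, of which 20351 of 20380 single symbols matched RefSeq (GRCm38.p6) by gene number. The value of a gene was the mean of its probe sets. The genotypes were tested by limma (version 3.58.1, R 4.3.3; lmFit and eBayes, two-sided, no covariate), with Benjamini-Hochberg adjustment over all 22626 probe sets or 12393 genes and a threshold of 0.05. The scripts were tested on simulated data. The number of arrays limits the precision.

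Values on each array are given for members that were called or whose genotypes did not overlap, in either fit, and for 10 core genes fixed by name, of which 7 were measured (Gabrb2, Gad1, Gad2, Slc32a1, Gabbr1, Gphn and Slc12a5). Those of Gabrd, Gabra3, Gabrg1, Glra1 and Glra4 were added after their values were seen. Pathway genes outside the members were named where called or not overlapping. The members, lists and alternatives were chosen with earlier results of these data known. Applying the alternatives to the 7 arrays without BSKO 2 was added after seeing the data. Figures were drawn with matplotlib 3.10.9.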

Additional observations from a re-analysis of the deposited data

Results flagged for a closer look

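In each genotype the highest and the lowest of the 4 arrays were compared with the others by Dixon's criterion, for the 28 genes. Of the 56 groups, 7 held an array that stood apart, where chance alone gives about 1 in 20 groups. BSKO 2 was that array in 5 of them. It was the lowest BSKO array for Gabra2 (-0.97, next -0.28), Gabra3 (-1.26, next -0.15), Gad1 (-1.58, next -0.05) and Glrb (-1.10, next -0.31), and the highest for Gabrq (0.61, next 0.03). WT 1 was the other: its value for Gabrg3 was -1.05, with the next WT array at -0.17, and for Gabrr2 it was 0.51, with the next at 0.01.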

How the results depend on the processing

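With 8 arrays, 0 of 42 member probe sets and 0 of 28 member genes were called, and the counts stayed at 0 with array medians set to 0, without cross-hybridising probe sets, with trend and robust settings, with the replicate number as a replicate block, at an adjusted p under 0.10, with a fold of at least 1.2 and, for genes, with the median or the least variable probe set. The fold limit can only remove calls, so it could not raise a count of 0. Leaving out cross-hybridising probe sets changed the difference of no member gene, so it was no check of their values. Quantile normalization made the counts of members 3 and 3, beside 678 of all 22626 probe sets and 413 of all 12393 genes. Array weights, which gave BSKO 2 only 0.0456 over probe sets, made them 8 and 6. With these weights 2617 of all probe sets were called, and of all genes 637 were called higher and 597 lower in BSKO. A term for the division of replicates into 1 and 2 against 3 and 4 made them 1 and 1 (Gabrd). Of all probe sets 84 were called with it, and of all genes 78. Leaving out 1 array gave 0 to 3 for both, with 3 only without BSKO 2, where 369 of all probe sets and 266 of all genes were called.

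Without BSKO 2 the counts were 3 and 3. They were 8 and 6 with array weights, 5 and 5 with that division as a term, and 0 and 0 with the replicate block. Over all probe sets and all genes, 3005 and 1478 were called with array weights. With the division as a term 744 and 565 were called, and with the replicate block 0 and 4. Leaving out a further array gave 0 to 6 for both, beside 19 to 1069 of all probe sets and 13 to 814 of all genes. The numbers in the labels were not taken as pairs: deviations of same-numbered arrays correlated at 0.0562 to 0.140, and not every array correlated best with its own number.

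The 8-array differences of some genes turned: Gabrp (-0.0645), Gabrr1 (-0.0933), Gabrr2 (-0.12), Gad1 (0.0197) and Slc12a5 (0.0144) with array weights, Gabrr2 (-0.14) after quantile normalization, and Gabbr1 (0.0016) and Slc12a5 (0.0619) on the least variable probe set. Without single arrays Abat ranged from -0.0528 to 0.123, Gabrp from -0.0228 to 0.283, Gabrr1 from -0.0236 to 0.331, Gabrr2 from -0.305 to 0.437, Gad1 from -0.546 to 0.00731, Slc12a5 from -0.269 to 0.00107 and Slc6a5 from -0.0771 to 0.0749. The cause was not tested. Centred values carry no brightness, so dim members cannot be told from bright ones and the planned filter for them was not run.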
